A study of Mus musculus with 2 samples.

Results

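The family of Mir148a, Mir148b and Mir152, 3 miRNA genes of the mouse that share a seed, was examined in the gastrocnemius, a muscle of the calf. The members were taken by gene name from the 2202 miRNA genes of the annotation, and all 3 had a row in the tables. The samples were 2 male B6CASTF1/J mice, the F1 cross of the C57BL/6J and CAST/EiJ strains, at 10 days of age, with no treatment named in the labels. They are biological replicates 1 and 2 of 1 group and carry separate animal numbers, with a shared donor entry. No condition was compared, and the data give the level of each member and how far these 2 libraries differed. Each animal has its own library, so a difference between animals cannot be told apart from a difference in library preparation.

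A miRNA is cut from a hairpin transcript, and 1 strand of about the length of a small RNA read guides silencing of mRNAs that pair with its seed (bases 2 to 8). The main strand of each member of this family comes from the 3p arm, and the family is known for silencing the maintenance DNA methyltransferase Dnmt1. In other tissues miR-148a is studied as a regulator of the low-density lipoprotein receptor in liver, and in cultured myoblasts as a promoter of muscle differentiation through Rock1.

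The mature 3p strands are shown because the shared seed defines the family and the bases after it let reads be told apart. The letters run 5′ to 3′, the capitals mark the seed, and the sequences are from RefSeq on GRCm38.p6.
mmu-miR-148a-3p: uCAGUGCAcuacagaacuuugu
mmu-miR-148b-3p: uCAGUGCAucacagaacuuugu
mmu-miR-152-3p: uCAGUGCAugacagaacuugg
Among 1738 mature mouse miRNAs in that table, no other strand carried this seed. The table holds 1398 different seeds, of which 4.36% occur in 3 or more genes. Counted from 1 at the 5′ end of miR-148a-3p, miR-148b-3p differs by C9U and U10C. miR-152-3p differs from miR-148a-3p by C9U, U10G and U20G and is 1 base shorter. From miR-148b-3p it differs only by C10G and U20G and by that missing base. The longest run that miR-148a-3p shares with miR-148b-3p is 12 bases, and with miR-152-3p it is 9 bases.

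The opposite strands, from the 5p arm, did not all share a seed. They are shown because the deposited counts are per hairpin and hold reads of both arms together.
mmu-miR-148a-5p: aAAGUUCUgagacacuccgacu
mmu-miR-148b-5p: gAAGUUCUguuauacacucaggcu
mmu-miR-152-5p: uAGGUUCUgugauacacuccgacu
The 5p strands of Mir148a and Mir148b had the same seed, which no other mature strand of the table had. The 5p seed of Mir152 occurred in no other strand.

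The hairpins bear on whether reads of 1 member could be counted for another. In the next lines the 3p strand is in capitals.
Mir148a: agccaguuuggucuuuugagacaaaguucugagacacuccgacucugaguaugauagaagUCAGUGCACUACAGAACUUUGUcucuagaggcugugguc
Mir148b: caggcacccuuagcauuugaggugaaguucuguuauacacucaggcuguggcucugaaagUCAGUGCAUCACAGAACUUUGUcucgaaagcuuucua
Mir152: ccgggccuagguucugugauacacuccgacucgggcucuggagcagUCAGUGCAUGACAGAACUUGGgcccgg
The longest stretch shared by Mir148a and Mir148b was 15 nt, and Mir152 shared at most 12 nt with any other annotated miRNA hairpin. Each 3p strand occurred whole in 1 of the 2202 annotated hairpins, its own. Only annotated hairpins were searched, not the genome. The hairpins of Mir148a and Mir148b are 99 and 97 nt long with a GC content of 45.5% and 45.4%, and that of Mir152 is 73 nt long with 61.6% GC. The median over all annotated hairpins was 89 nt and 50.8% GC. The predicted folding energy per nt was -0.60 kcal/mol for Mir152, -0.41 for Mir148a and -0.32 for Mir148b. The median of all hairpins was -0.37 kcal/mol per nt, and 3.81% of them had a lower value than Mir152.

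The 3 hairpins lie on different chromosomes, and 2 of them lie in introns of paralogous genes. Mir148a (ENSMUSG00000065505.1) is at chr6:51269812-51269910 on the minus strand of mm10 and overlaps no other annotated gene. The nearest gene is the lincRNA Gm32479, 13.6 kb away on the same strand. Mir148b (ENSMUSG00000065560.1) is at chr15:103285125-103285221 on the plus strand, in intron 1 of Copz1. Mir152 (ENSMUSG00000065515.1) is at chr11:96850393-96850465 on the plus strand, in intron 1 of Copz2. Copz1 and Copz2 encode alternative zeta subunits of the COPI coat of Golgi transport vesicles. The intron around Mir148b has 16159 nt and that around Mir152 has 676 nt, and the same intron holds the hairpin in each annotated host transcript that spans it. No other miRNA gene lies within 10 kb of any member, so none of the 3 belongs to a cluster at that distance. The tables count miRNA genes only, and the host mRNAs were not measured.

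Genes of the same families lie beside the 3 hairpins, a comparison chosen after the neighbouring genes were seen. The nearest gene of the Nfe2 family of leucine zipper transcription factors is Nfe2l3 at 163 kb from Mir148a, Nfe2 at 26.7 kb from Mir148b and Nfe2l1 at 20.4 kb from Mir152. The nearest gene of heterochromatin protein HP1 is Cbx3 at 200.4 kb, Cbx5 at 45.3 kb and Cbx1 at 41.8 kb in the same order. Hnrnpa2b1 lies 191 kb from Mir148a and Hnrnpa1 lies 38.4 kb from Mir148b. Of the 2202 annotated miRNA genes, 6 lie within 250 kb of both an Nfe2 family gene and an HP1 gene, and 3 of these are the members. This window is wider than every distance given above, so the members were bound to fall within it. The other 3 add no separate locus, since Mir615 and Mir6963 lie near Mir148b and Gm22914 lies on the chromosome of Mir148a, beyond the same neighbours.

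**Figure D1:**
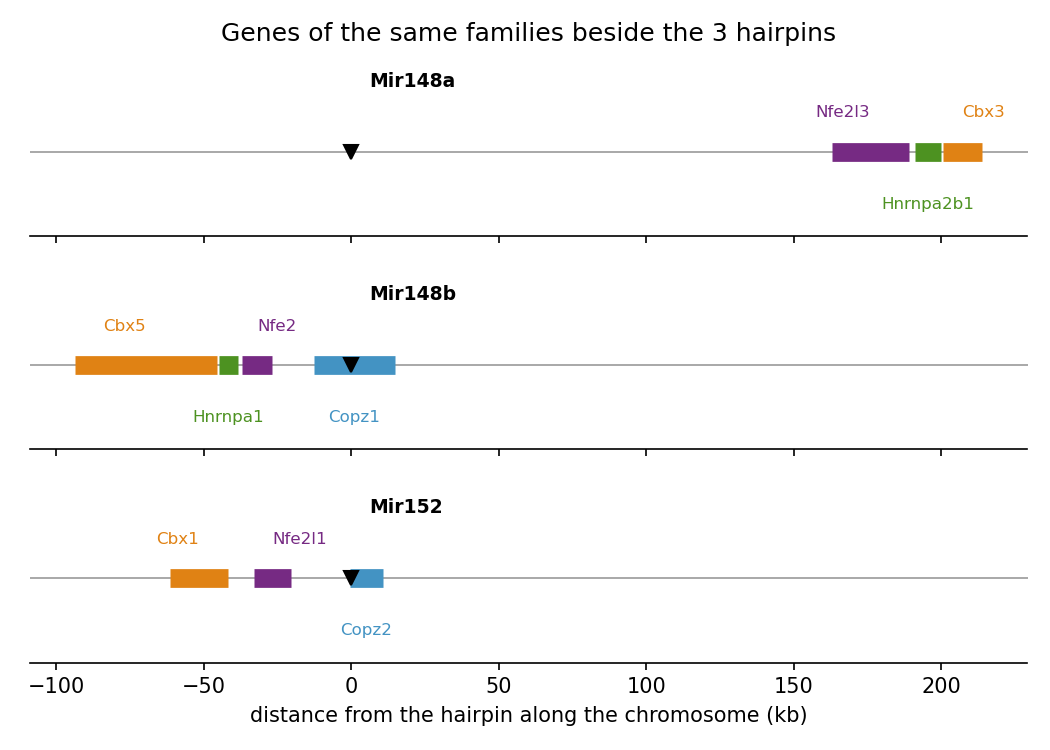
Genes of the Nfe2, HP1 (Cbx), Hnrnpa and Copz families around each hairpin (triangle at 0), by distance along the chromosome in kb (x axis). At each locus the Nfe2 family gene lies between the hairpin and the HP1 gene, 163 kb from Mir148a, 26.7 kb from Mir148b and 20.4 kb from Mir152.

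All 3 members were detected with at least 10 reads in both libraries, as were 313 of the 2202 genes. Mir152 and Mir148a stood at nearly the same level, and Mir148b was several times lower. Levels are reads per 1000000 reads assigned to miRNA genes (CPM), and the exact 95% intervals cover counting error only. Replicate 1 held 3999172 assigned reads and replicate 2 held 5062714. A count of 0 would have allowed up to 0.75 CPM in replicate 1 and 0.593 CPM in replicate 2, far below every member.

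Mir152 had 894 reads in replicate 1, or 224 CPM (interval 209 to 239), and 934 reads in replicate 2, or 184 CPM (interval 173 to 197). Mir148a had 838 reads in replicate 1, or 210 CPM (interval 196 to 224), and 888 reads in replicate 2, or 175 CPM (interval 164 to 187). For both genes the level was higher in replicate 1, and the intervals of the 2 libraries did not overlap. Mir148b had 181 reads in replicate 1, or 45.3 CPM (interval 38.9 to 52.4), and 222 reads in replicate 2, or 43.8 CPM (interval 38.3 to 50.01). Its 2 intervals overlapped almost entirely. The means were 204 ± 28 CPM for Mir152, 192 ± 24 CPM for Mir148a and 44.6 ± 1.0 CPM for Mir148b (SD, n = 2).

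**Figure D2:**
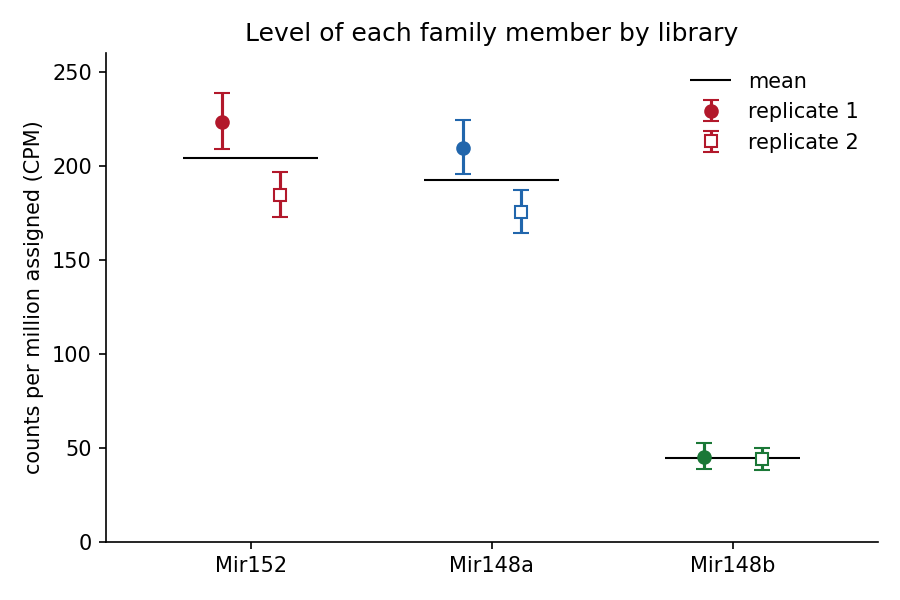
Level of each family member in CPM (y axis) in replicate 1 (filled circles) and replicate 2 (open squares), with exact 95% Poisson intervals as bars and the mean of both as a line. Mir152 and Mir148a lie between 175 and 224 CPM in both libraries, and Mir148b lies near 45 CPM.

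Mir152 and Mir148a did not differ beyond counting error, and both exceeded Mir148b. The count of Mir152 was 1.07 times that of Mir148a in replicate 1 (exact interval 0.970 to 1.17) and 1.05 times in replicate 2 (exact interval 0.958 to 1.15). Their means differed by less than either SD. Both SDs hold the lower level of the 2 genes in replicate 2, which the ratios within a library leave out. The count of Mir148a was 4.63 times that of Mir148b in replicate 1 (exact interval 3.94 to 5.47) and 4.00 times in replicate 2 (exact interval 3.45 to 4.65). For Mir152 over Mir148b the ratios were 4.94 (exact interval 4.21 to 5.83) and 4.21 (exact interval 3.63 to 4.89).

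A small RNA read spans a mature strand of nearly the same length in each gene, 21 or 22 bases for the 3p arm, so these ratios were not divided by gene length. Division by hairpin length changed 1 of the 3 comparisons. Per nt of hairpin, Mir152 was 1.45 times Mir148a in replicate 1 (exact interval 1.32 to 1.59) and 1.43 times in replicate 2 (exact interval 1.30 to 1.57). Mir148a remained above Mir148b per nt, at 4.54 times in replicate 1 and 3.92 times in replicate 2, and so did Mir152, at 6.56 and 5.59 times.

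Within the family, the order of the shares was the same in both animals. Mir152 supplied 46.7% of the reads of the family in replicate 1 (exact binomial interval 44.5 to 49.0) and 45.7% in replicate 2 (43.5 to 47.9). Mir148a supplied 43.8% (41.6 to 46.1) and 43.4% (41.3 to 45.6). Mir148b supplied 9.46% (8.19 to 10.9) and 10.9% (9.54 to 12.3). For each member the intervals of the 2 libraries overlapped. The reads that carry the common 3p seed cannot be separated from 5p reads, so these shares are of hairpin counts.

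Against the other miRNA genes the family stood in the middle of the detected range. Together the 3 genes had 1913 reads in replicate 1, or 478 CPM, and 2044 reads in replicate 2, or 404 CPM. That was 0.0478% of the assigned reads (exact binomial interval 0.0457 to 0.05003) and 0.0404% (0.0386 to 0.0422), with a mean of 0.0441% ± 0.0053 (SD, n = 2). By mean level Mir152 ranked 143rd, Mir148a 144th and Mir148b 200th among all miRNA genes. Mir152 was higher than 54.3% of the detected genes, Mir148a than 54.0% and Mir148b than 36.1%. The median detected gene was at 135 CPM, with quartiles at 17.7 and 765 CPM. The most abundant gene, Mir127, had 96935 ± 1871 CPM, which was 475 times the level of Mir152.

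**Figure D3:**
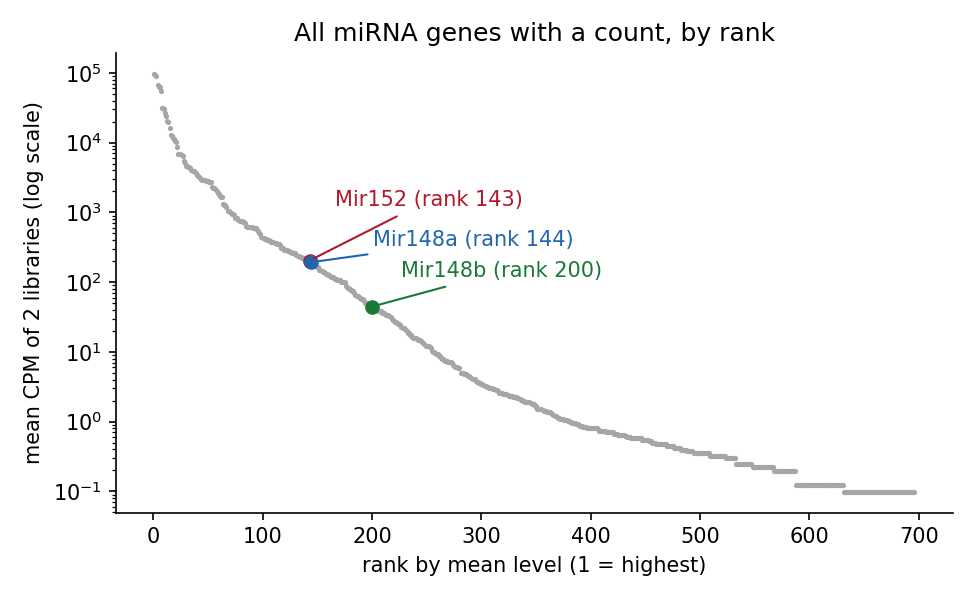
Mean CPM of the 2 libraries (y axis, log scale) against rank (x axis) for every miRNA gene with at least 1 read. Mir152 (rank 143) and Mir148a (rank 144) fall on the same point of the curve, and Mir148b (rank 200) is lower.

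The genes nearest in level were found by the Euclidean distance of log2(CPM + 1) over the 2 libraries. The nearest outside the family were Mir410, Mirlet7a-1 and Mir188 for Mir152, and Mir301, Mirlet7a-1 and Mir410 for Mir148a. Mir148a and Mir152 were 0.12 log2 units apart from each other, as near as Mir152 was to Mir410 (0.12) and nearer than Mir148a was to Mir301 (0.17). In replicates 1 and 2, Mir410 had 221 and 200.1 CPM, and Mir301 had 191 and 188 CPM. For Mir148b the nearest were Mir1306 (42.8 and 42.1 CPM), Mir3072 (49.8 and 43.8 CPM) and Mir467c (47.8 and 48.8 CPM). With 2 libraries this measure mostly compares levels, and Mirlet7a-1 and Mir467c are copies of repeated miRNAs whose counts are uncertain.

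Between the libraries, Mir148a and Mir152 were lower in replicate 2 and Mir148b did not pass the test. The ratio of replicate 2 to replicate 1 was tested with a two-sided exact binomial test given library totals scaled by TMM, with Benjamini-Hochberg adjustment over 332 genes with a mean of at least 10 reads. This test compares 2 libraries, not conditions, and counting error is its only source of spread. The log2 ratio of Mir152 was -0.21 (interval -0.34 to -0.072, exact binomial adjusted p = 0.00816). That of Mir148a was -0.19 (interval -0.32 to -0.047, exact binomial adjusted p = 0.0228). That of Mir148b was 0.026 (interval -0.26 to 0.32, exact binomial adjusted p = 0.941), a range that includes the values of the other two. Whether Mir148b differed from them in its ratio was not tested.

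A call by this test was common, since 39.5% of the 332 genes passed it, 27.1% as higher and 12.3% as lower in replicate 2. With plain library totals 42.5% passed, 18.7% as higher and 23.8% as lower, and Mir152 (log2 -0.28) and Mir148a (log2 -0.26) passed there too. Of the genes tested, 41.9% had a larger absolute ratio than Mir152 and 44.6% a larger one than Mir148a. These include genes with few reads, whose ratios spread more by counting error. By direction, 19.3% of the genes had a lower ratio than Mir152 and 20.8% a lower one than Mir148a. The median gene had a log2 ratio of 0.016, with quartiles at -0.14 and 0.17. The negative binomial exact test in edgeR, with a dispersion estimated from the same pair of animals, called 1.81% of the genes and none of the members (adjusted p = 1 for each). Its dispersion was estimated with the 2 libraries treated as replicates, so it already held their difference. That works against calls, and the lack of a call for the members decides nothing.

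**Figure D4:**
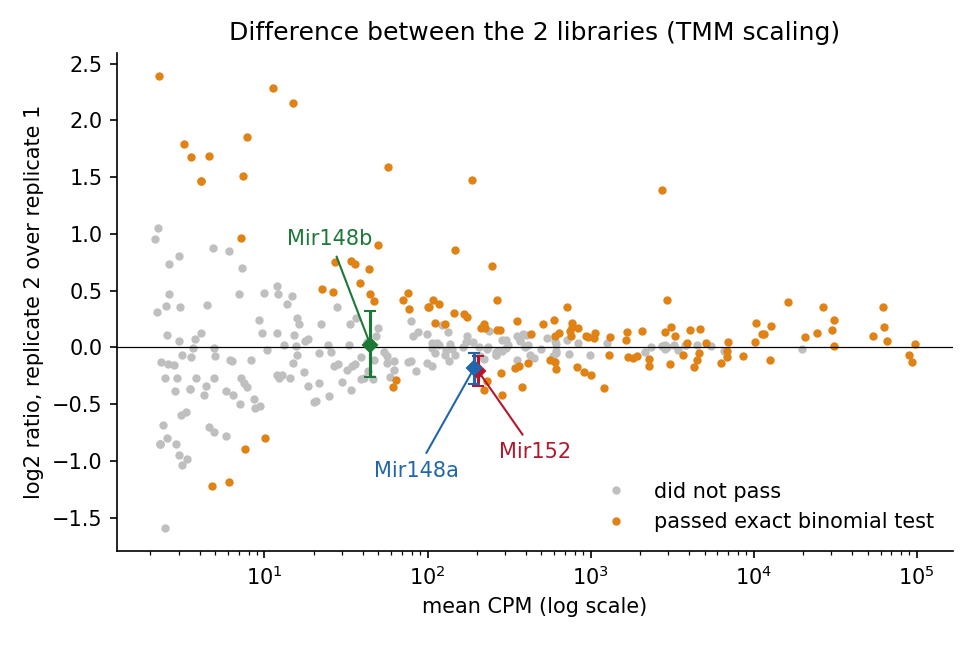
Log2 ratio of replicate 2 over replicate 1 with TMM scaling (y axis) against mean CPM (x axis, log scale) for 332 genes, orange where the exact binomial test was passed. Diamonds mark the family with 95% exact intervals, with Mir152 at -0.21 and Mir148a at -0.19 below 0 and Mir148b at 0.026.

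The samples are pieces of whole muscle, in which fewer cells of a type and less RNA per cell cannot be told apart. Mir206, the skeletal muscle miRNA, had 94022 ± 9301 CPM, and 6 of the 8 muscle markers listed were detected. The 8 markers summed to 100971 CPM in replicate 1 and 87956 CPM in replicate 2. Of the 7 tested, Mir206 passed the exact binomial test as lower in replicate 2 (log2 -0.13), as Mir148a and Mir152 did, and Mir499 (log2 0.72), Mir208b (log2 0.69) and Mir1a-2 (log2 0.36) passed as higher. The genes of Mir1a and Mir133a, defining muscle miRNAs with several copies in the genome, had 1.67 to 102 CPM, and multiply matching reads were left uncounted. Other cell types in which the family is known to be abundant are those of liver and pancreas. Of the 4 liver markers 3 were detected, and their summed level was 125 CPM in replicate 1 and 287 CPM in replicate 2. Mir122 made up 103 and 272 CPM of these sums. Mir194-1 had 0 in both libraries, where multiply matching reads were again left uncounted. The 4 pancreas markers summed to 11.5 and 12.2 CPM, and the 2 erythroid markers to 1680 and 4088 CPM. Mir122 and both erythroid genes, Mir451a and Mir144, passed the exact binomial test as higher in replicate 2, where Mir148a and Mir152 were lower. The other liver genes tested, Mir194-2 (log2 -0.51) and Mir192 (log2 -0.53), had fewer reads and did not pass, and the median log2 ratio of the 3 liver genes was -0.51. Of the 2 pancreas genes tested, 0 passed. Over all genes tested, 27.1% passed as higher and 12.3% as lower in replicate 2 with TMM.

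Further marker lists had a smaller sum in replicate 2 with plain library totals, under which the median gene tested had a log2 ratio of -0.055. The 5 fibroblast markers summed to 4296 and 3827 CPM in replicates 1 and 2, the 7 epithelial markers to 90.8 and 71.9 CPM and the 4 brown adipocyte markers to 686 and 617 CPM. With TMM scaling, 1 of 4 fibroblast genes tested was lower (Mir214), 1 of 4 epithelial genes was lower (Mir205) and 0 of 4 brown adipocyte genes passed, while plain library totals gave 2, 1 and 1 lower. The leukocyte markers summed to 423 and 447 CPM, the endothelial Mir126a had 55784 and 67925 CPM, and the smooth muscle pair summed to 24571 and 29713 CPM. With TMM scaling, 2 of 4 leukocyte genes tested, Mir126a and 1 of 2 smooth muscle genes passed as higher. Plain totals gave 1 leukocyte gene, Mir126a and 1 smooth muscle gene as higher, and 1 smooth muscle gene as lower. Over all genes tested, 27.1% passed as higher and 12.3% as lower with TMM, and 18.7% and 23.8% with plain totals. The part of these cell types in the levels of the family was not tested.

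Next to other miRNAs studied as regulators of DNA methylation or histone methylation, the family stood in the middle. The list held 13 genes. Of these, 4 had a higher mean than Mir152, namely Mir126a (61854 ± 8585 CPM), Mir143 (26527 ± 3672 CPM), Mir26b (10403 ± 749 CPM) and Mir342 (843 ± 13 CPM). Mir126a and Mir342 are studied as regulators of Dnmt1, Mir143 of Dnmt3a, and Mir26b of the histone methyltransferase Ezh2. Another Dnmt1 regulator, Mir185, stood at 155 CPM in replicate 1 and 180 CPM in replicate 2, close to Mir148a. Among the other genes studied for Ezh2, Mir101b had 175 ± 17 CPM, Mir101a 36.4 ± 3.3 CPM, Mir26a-2 17.7 ± 0.1 CPM and Mir26a-1 2.39 ± 0.86 CPM. The 4 Mir29 genes, which target Dnmt3a and Dnmt3b, ranged from 2.23 to 87.0 CPM. Between the libraries, 6 of the 13 genes were higher in replicate 2, 0 were lower and 7 did not pass the exact binomial test. The median log2 ratio of the list was 0.26 against 0.016 for all genes tested. Over all genes tested, 27.1% passed as higher and 12.3% as lower. Plain library totals gave the same counts for the list in each direction, where 18.7% of all genes tested passed as higher and 23.8% as lower.

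Of 14 miRNAs studied in cholesterol and lipid handling, a role also known for miR-148a, 4 were above Mir148a and 6 lay between Mir148b and Mir148a. The 2 highest were Mir27b (2147 ± 119 CPM) and Mir128-1 (386 ± 8 CPM). Mir33, which lies in a sterol regulator gene and represses cholesterol efflux, stood at 10.0 and 5.14 CPM, below every member of the family. Mir122, the main miRNA of hepatocytes, had 103 and 272 CPM, the first below Mir148a and the second above it. Of the 13 genes tested, 4 were higher and 1 lower in replicate 2, with a median log2 ratio of 0.14, or 4 and 2 when scaled by plain totals. With TMM the counts are close to the shares of all genes tested, 27.1% higher and 12.3% lower. With plain totals those shares were 18.7% and 23.8%, from which the counts of the list lie further away.

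Of 20 miRNA genes studied in myoblast differentiation, 9 were above Mir148a and Mir152, 2 lay between Mir148a and Mir148b, and 9 were below Mir148b. The 2 highest, Mir206 and Mir378a (89927 ± 6259 CPM), were far above every member of the family. Mir486 stood at 205 and 219 CPM, like Mir152 in counted reads, with reads that match several places left out. Mir503, of the X-linked cluster of Mir322, had 312 and 255 CPM. Of 19 genes tested, 3 were higher, 4 were lower and 12 did not pass, with a median log2 ratio of -0.076. When scaled by plain totals, 2 passed as higher and 6 as lower. The shares of all genes tested were 27.1% higher and 12.3% lower with TMM, and 18.7% and 23.8% with plain totals. The lists overlap each other, and several of their genes, the copies of Mir1a, Mir133a, Mir26a, Mir29b and Mir24 among them, have near-identical copies and uncertain counts.

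**Figure D5:**
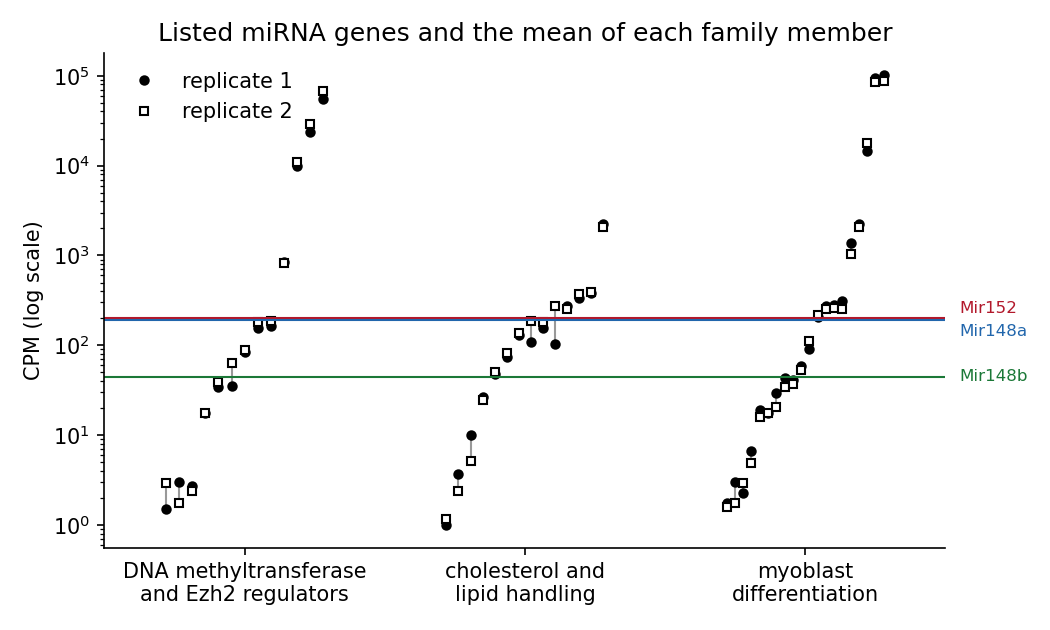
CPM (y axis, log scale) of each gene of the 3 lists in replicate 1 (filled circles) and replicate 2 (open squares), ordered by mean within a list. Horizontal lines are the means of Mir152 (204 CPM), Mir148a (192 CPM) and Mir148b (44.6 CPM), which pass through the middle of each list.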

How the data were processed

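Small RNA libraries of 2 samples were analysed. The authors deposited raw read counts per miRNA gene, 1 table a library, on mm10 with GENCODE M21 per the deposited metadata text. Aligner and counter: not given in the sources used here. Column 3 was taken as the sense strand, inferred from totals, since it held 5.61 and 5.47 times the reads of the other. Summary rows held 58.7% and 60.7% of reads and stayed out of totals. Reads matching several places (47.0% and 48.0%) are in no gene. How CAST/EiJ alleles aligned to this C57BL/6J assembly was not tested. The libraries were not 1 library deposited again, with a chi-square of 85.7 per degree of freedom. The members and lists were chosen with earlier results of these data known.

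CPM used plain totals. The exact binomial test was tested on simulated counts with counting error only. The real libraries spread more than that, so the simulation does not show how the test behaves on them. Adjusted p values were called at 0.05. With 1 group the quasi-likelihood test could not be fitted. Named genes are the members, the 3 nearest in level to each, same-seed genes, host genes and leading or relevant genes of 3 lists; others serve as markers. Software was Python 3.11.15, scipy 1.17.1, edgeR 4.0.16, DESeq2 1.42.0 and RNAfold 2.7.2. Alternatives were the unstranded column, all reads as denominator, other scalings, minimums and pseudocounts, and each library alone.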

Additional observations from a re-analysis of the deposited data

How the results depend on the processing

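Levels depended on the denominator. With the unstranded column, whose total is smaller, the mean was 235 CPM for Mir148a, 54.4 for Mir148b and 249 for Mir152, and the family took 0.0538% of the assigned reads. With all reads as the denominator the means were 77.7, 18.0 and 82.4 CPM, and the share was 0.0178%. Without 1 replicate the levels ranged from 175 to 210 CPM for Mir148a, 43.8 to 45.3 for Mir148b and 184 to 224 for Mir152, and the share from 0.0404% to 0.0478%. Shares within the family ranged from 43.4% to 43.8%, 9.46% to 10.9% and 45.7% to 46.7% in that order of genes. The log2 ratio of Mir148b was -0.046 with plain totals, a change of sign within its interval. With the negative binomial test, 6 genes passed in place of 131, and Mir148a (log2 -0.19) and Mir152 (log2 -0.21) no longer did. The dispersion of that test already held the difference between the 2 libraries, which works against calls. Mir148a and Mir152 both passed under the other 5 alternatives run for them. The ratio of Mir152 to Mir148a per nt of hairpin, an alternative chosen after seeing the data, was 1.44 as the mean of both libraries. No paired analysis was possible because the series holds 1 group. A ratio between 2 libraries cannot be had without 1 of them. The 181 and 222 reads of Mir148b limit the precision of its ratio.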

Other observations

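Mir615 lies within 250 kb of the Nfe2 and HP1 genes next to Mir148b. Its level was 373 CPM in replicate 1 and 313 CPM in replicate 2, above each member of the family in both libraries. Mir6963 and Gm22914, the other genes within that distance of both kinds of neighbour, had no read in either library.

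On the strand opposite to the genes, Mir152 had 2 reads in replicate 1 and 0 in replicate 2, and Mir148a and Mir148b had 0 in both, which is within the 3 reads that a count of 0 allows.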
